A study of Sus scrofa with 8 samples.

Results

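The transcripts described are those of 6 S100 genes (S100G, S100A8, S100A9, S100A10, S100A11 and S100A12) and 4 annexin genes (ANXA1, ANXA2, ANXA4 and ANXA5) in pig endometrium. They were chosen by gene name. Every probeset to which the array's annotation gives 1 of these symbols and no other was kept, whatever its signal. That gave 12 probesets of 10 genes, out of 23999 tested probesets and 7416 named genes. S100G and ANXA4 had 2 probesets each, called here the brighter and the dimmer. Endometrium was taken from 4 Meishan and 4 Yorkshire gilts at slaughter on day 12 of gestation. Each gilt had been mated naturally to a boar of its own breed at an early estrus (the second or the third), and each carried elongated (filamentous) conceptuses. Meishan is a Chinese breed known for large litters and Yorkshire a European commercial breed. Total RNA of each gilt was hybridized to 1 single-colour Affymetrix porcine array, so the replicates of a breed were separate animals, and whole endometrium held epithelium, stroma, vessels and blood cells together. Values below are linear signals after each array was centred on its median. Breed means are geometric means of 4 gilts, differences are log2 Meishan minus Yorkshire with their standard error (SE), and a call means a limma adjusted p under 0.1.

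S100 proteins are small EF-hand proteins that bind calcium, and most act as dimers that change shape on binding it and then attach to a target protein. Annexins bind the phospholipids of membranes in the presence of calcium and take part in membrane traffic, repair and secretion. The families meet in known complexes, S100A10 with ANXA2 and S100A11 with ANXA1, and in uterus S100G, also called calbindin-D9k, is a known calcium buffer of the epithelium.

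The median signal before centring lay between 168 and 195 for Meishan arrays and between 171 and 187 for Yorkshire arrays. Epithelial markers were measured for 9 of 10 genes and stromal markers for 7 of 9, all with a mean signal of at least 64 at the brightest probeset of the gene. The spike-in controls of the hybridization had a mean log2 signal of 11.80 to 12.52 on Meishan arrays and of 10.77 to 11.27 on Yorkshire arrays, without overlap. No hybridization batch is given in the labels, so a batch of arrays and the breed cannot be told apart.

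Of the 12 probesets limma called 0, where 0.908% of all tested probesets were called (218 of 23999), 0.404% toward Meishan and 0.504% toward Yorkshire. At an unadjusted p under 0.05 there was 1 of 12, against 14.8% of all tested (7.79% toward Meishan and 6.96% toward Yorkshire). Signals of the breeds were without overlap at 1 of 12, against 10.1% of all tested (5.01% with Meishan above). The same probeset, the brighter one of ANXA4, was concerned each time with Meishan above, and it was the only one called when each probeset kept its own unmoderated variance. The difference was above 0 (toward Meishan) for 8 probesets and below 0 for 4, with a median of 0.31 beside 0.02 over all tested. Of all tested, 51.7% were above 0. The within-breed SD on the log2 scale had a median of 0.49 over the 12 probesets and of 0.44 over all, and 8 of the 12 lay above the latter. Dim probesets raise the median over all. Most of the 12 lay in the brightest 10% of tested probesets, where the median SD was 0.27.

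**Figure D1:**
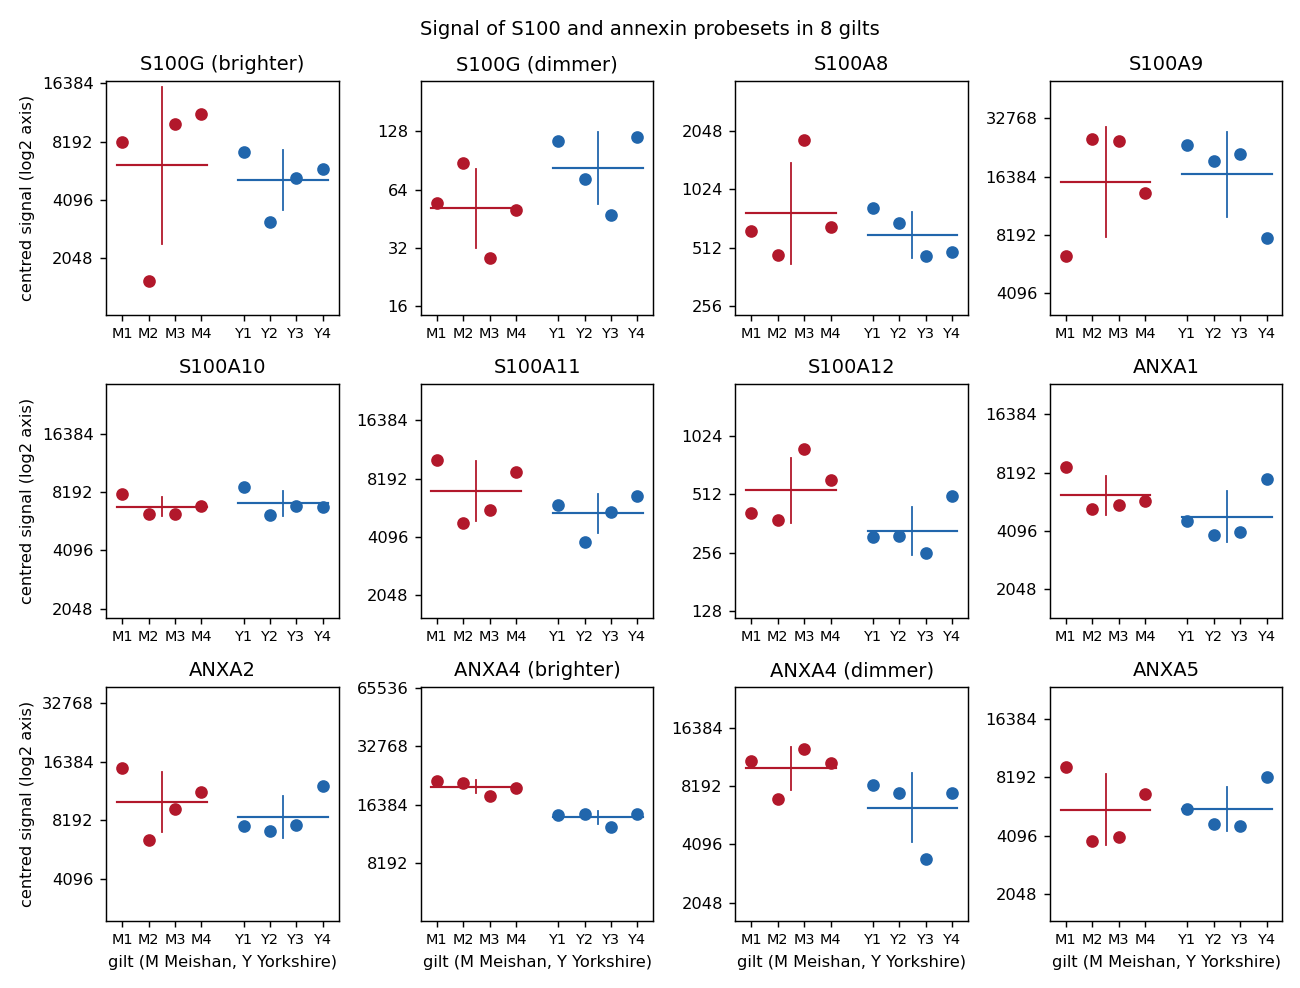
Centred signal on a log2 axis of each of the 12 probesets in the 4 Meishan (red, M1 to M4) and 4 Yorkshire gilts (blue, Y1 to Y4), with the breed mean as a horizontal line and 1 SD of the log2 signals as a vertical line. All panels span the same number of doublings, and only at the brighter ANXA4 probeset do all red points lie above all blue points.

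S100G binds and carries calcium in absorptive and secretory epithelia. At its brighter probeset the signals of Meishan gilts 1 to 4 were 8167, 1557, 10125 and 11359.8. Those of Yorkshire gilts 1 to 4 were 7236, 3144, 5297 and 5919.7. Meishan gilts thus held both the 3 highest values and the lowest, Meishan 2 lying 7.30-fold under Meishan 4. The breed means were 6184 and 5168, a difference of 0.26 (SE 0.63, limma adjusted p = 0.883, 95% interval -1.20 to 1.72). It was 0.92 without Meishan 2 (adjusted p = 0.270) and -0.03 without Meishan 4. The within-breed SD of 1.02 exceeded that of 98.9% of the probesets of like brightness.

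The dimmer S100G probeset did not follow the brighter one. Its signals were 54.7, 88.2, 28.4 and 50.3 in Meishan and 114, 73.0, 47.5 and 119 in Yorkshire. Its difference was -0.69 (SE 0.42, limma adjusted p = 0.488), with means of 51.2 and 82.8. Over the 8 gilts the log2 signals of the 2 probesets had a Pearson r of -0.44. Which of them follows the S100G transcript better cannot be read from these signals.

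S100A8, S100A9 and S100A12 are the calgranulins, abundant in the cytoplasm of neutrophils and monocytes and also made by stressed epithelia. S100A8 and S100A9 form the heterodimer calprotectin, which binds zinc and manganese as well as calcium. In the RefSeq annotation of the pig genome (Sscrofa11.1) the 3 genes are direct neighbours in the order S100A8, S100A12, S100A9.

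S100A8 had signals of 625, 469, 1843 and 656 in Meishan and 817, 687, 465 and 484 in Yorkshire, with gilts again in the order 1 to 4. Meishan 3 was higher than every other gilt, and Yorkshire 1 and Yorkshire 2 lay above the other 3 Meishan gilts. The difference was 0.37 (SE 0.43, limma adjusted p = 0.734, 95% interval -0.63 to 1.37), and without Meishan 3 it was -0.05.

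S100A9 varied widely within each breed. Its signals were 6371, 25434, 24953 and 13520.4 in Meishan and 23696, 19786, 21428 and 7924 in Yorkshire. Meishan 1 and Yorkshire 4 were lowest, Meishan 4 was intermediate, and the other 5 gilts lay between 19786 and 25434. The means were 15291 and 16797, and the difference was -0.14 (SE 0.53, limma adjusted p = 0.930, 95% interval -1.36 to 1.09). Without Meishan 1 it was 0.29, and without Yorkshire 4 it was -0.50. The within-breed SD was 0.84, above that of 97.8% of probesets of like brightness.

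S100A12, a ligand of the receptor AGER, had signals of 411, 379, 882 and 605 in Meishan and 308, 311, 255 and 499.8 in Yorkshire. Every Meishan gilt exceeded 3 of the Yorkshire gilts, and Yorkshire 4 exceeded Meishan 1 and Meishan 2. The means were 537 and 332, a difference of 0.69 (SE 0.33, limma unadjusted p = 0.0707, adjusted p = 0.383, 95% interval -0.07 to 1.46). Leaving out single gilts gave 0.45 to 0.89.

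The calgranulins did not move together from gilt to gilt. Over 8 gilts Pearson r was 0.32 between S100A8 and S100A9, 0.65 between S100A8 and S100A12, and -0.14 between S100A9 and S100A12. The second value rested on Meishan 3, the highest gilt for both genes: without Meishan 3 and Yorkshire 3, the gilts farthest from the median of S100A8, it was -0.40. These and all later correlations are descriptions over the same 8 arrays, which share tissue composition, RNA quality and scaling, and no p is attached to them.

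Markers of neutrophils and monocytes were measured for 8 of 18 genes (13 probesets), of which limma called 0 and 3 had an unadjusted p under 0.05, 2 toward Meishan and 1 toward Yorkshire. Their mean log2 signal lay between 6.52 and 7.38 for Meishan and between 6.21 and 6.98 for Yorkshire. At their brightest probesets ITGAM, FCN1, ELANE and NCF1 averaged below 64 over the 8 gilts, FCN1 and ELANE being named here after their values were seen. NCF1, a subunit of the phagocyte oxidase, had the lowest p of the list at a dim probeset with means of 18.2 and 38.5, Yorkshire above Meishan without overlap (-1.08, SE 0.33, limma adjusted p = 0.198), while its other probeset lay at 0.89. ITGB2, the common chain of leukocyte integrins, had means of 455 and 287 (difference 0.66, SE 0.26, limma adjusted p = 0.292). CD14, the monocyte coreceptor for lipopolysaccharide, had means of 255 and 168 at its brighter probeset (0.60, SE 0.32, limma adjusted p = 0.431). ITGAM, the integrin chain CD11b, lay at 1.58 and -1.32 at its 2 dim probesets. FCGR3A, an Fc receptor also named after its values were seen, had means of 682 and 914 (-0.42, SE 0.27, limma adjusted p = 0.506). Pearson r of the marker level with S100A8, S100A9 and S100A12 was -0.10, 0.36 and 0.19 over the 8 gilts. In whole tissue, fewer cells of a type and less RNA per cell cannot be told apart.

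S100A10 holds ANXA2 in a heterotetramer at the inner face of the plasma membrane and, unlike other S100 proteins, does so without calcium. Its spread was the smallest of the 6 S100 genes, with signals of 8017, 6301, 6341 and 6937 in Meishan and 8736, 6222, 6973 and 6884 in Yorkshire. The highest gilt exceeded the lowest by 1.40-fold. The difference was -0.06 (SE 0.18, limma adjusted p = 0.911, 95% interval -0.48 to 0.36), and it was 0.04 without Yorkshire 1.

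S100A11, the partner of ANXA1, had signals of 10188, 4827, 5631 and 8876 in Meishan and 6013, 3875, 5504 and 6672 in Yorkshire. Meishan 1 and Meishan 4 lay above all Yorkshire gilts, while Meishan 2 and Meishan 3 lay among them. The means were 7041 and 5408, a difference of 0.38 (SE 0.30, limma adjusted p = 0.604, 95% interval -0.31 to 1.08). The genes S100A11 and S100A10 are neighbours in the same RefSeq annotation, and over the 8 gilts r between them was 0.56.

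ANXA1 is known as a mediator of glucocorticoid action that limits leukocyte recruitment. Its signals were 8805, 5321, 5591 and 5825 in Meishan and 4626, 3901, 4069 and 7556 in Yorkshire. Yorkshire 4 stood above its breed and second only to Meishan 1, and every other Yorkshire gilt lay below every Meishan gilt. The difference was 0.36 (SE 0.28, limma adjusted p = 0.588, 95% interval -0.27 to 1.00). Without Yorkshire 4 it was 0.58, with an adjusted p of 0.336.

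ANXA2 joins membranes to actin and, with S100A10, presents plasminogen and its activators at the cell surface. It had signals of 15242, 6474, 9385 and 11443 in Meishan and 7674, 7183, 7705 and 12324 in Yorkshire. The lowest gilt was Meishan 2 and the highest Meishan 1, so the Meishan gilts enclosed all Yorkshire gilts. The difference was 0.25 (SE 0.31, limma adjusted p = 0.745, 95% interval -0.45 to 0.96).

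ANXA5 binds phosphatidylserine and is known from placenta as a shield against coagulation. Its signals were 9298, 3826, 4052 and 6731 in Meishan and 5592, 4723, 4613 and 8185 in Yorkshire. As with ANXA2, the Meishan gilts held both ends of the range. The means were 5581 and 5619, and the difference was -0.01 (SE 0.34, limma adjusted p = 0.994, 95% interval -0.80 to 0.78). Leaving out single gilts gave -0.26 to 0.17, and without the median centring it was 0.05.

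ANXA4, an annexin of secretory epithelia known from human endometrium for its increase in the secretory phase, showed the clearest breed difference of the 10 genes. At its brighter probeset Meishan gilts 1 to 4 had signals of 21766, 21180.1, 18202 and 20070.5. Yorkshire gilts 1 to 4 had signals of 14468, 14654, 12557 and 14756. The lowest Meishan gilt lay above the highest Yorkshire gilt. The within-breed SD of 0.11 was smaller than that of nearly all of the brightest 10% of probesets (percentile 3.38). Among probesets with a mean signal of at least 10000, the median within-breed SD was 0.16. The means were 20258 and 14078, a 1.44-fold greater abundance in Meishan (difference 0.53, SE 0.16, 95% interval 0.16 to 0.89). The unadjusted limma p was 0.0106 and the adjusted p 0.197, so the probeset was not called. With its own unmoderated variance it was (adjusted p = 0.0817). The authors' own list of differing transcripts, made on these samples, also names ANXA4 and is no independent support.

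At the dimmer ANXA4 probeset the signals were 11015, 7035, 12734 and 10739 in Meishan and 8303, 7509.6, 3449 and 7507 in Yorkshire. Meishan 1, 3 and 4 exceeded all Yorkshire gilts, Meishan 2 exceeded only Yorkshire 3, and Yorkshire 3 was far below the rest. The difference was 0.68 (SE 0.33, limma adjusted p = 0.391, 95% interval -0.09 to 1.44), and without Yorkshire 3 it was 0.39. Both probesets lay toward Meishan under each of the 20 alternatives tried.

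The position of ANXA4 among the brightest probesets belongs beside its difference. Of 211 probesets with a mean signal of at least 10000, 180 had differences toward Meishan, with a median of 0.29. In 89 of them the breeds did not overlap, and in 88 of these Meishan lay above. A difference at least as large as that of the brighter ANXA4 probeset was shown by 28 of the 211 (13.3%). After quantile normalization, which gives every array the same distribution, the ANXA4 difference was 0.30 (limma adjusted p = 0.478) and after cyclic loess 0.39. How far ANXA4 shares in the shift of bright probesets was not tested.

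**Figure D2:**
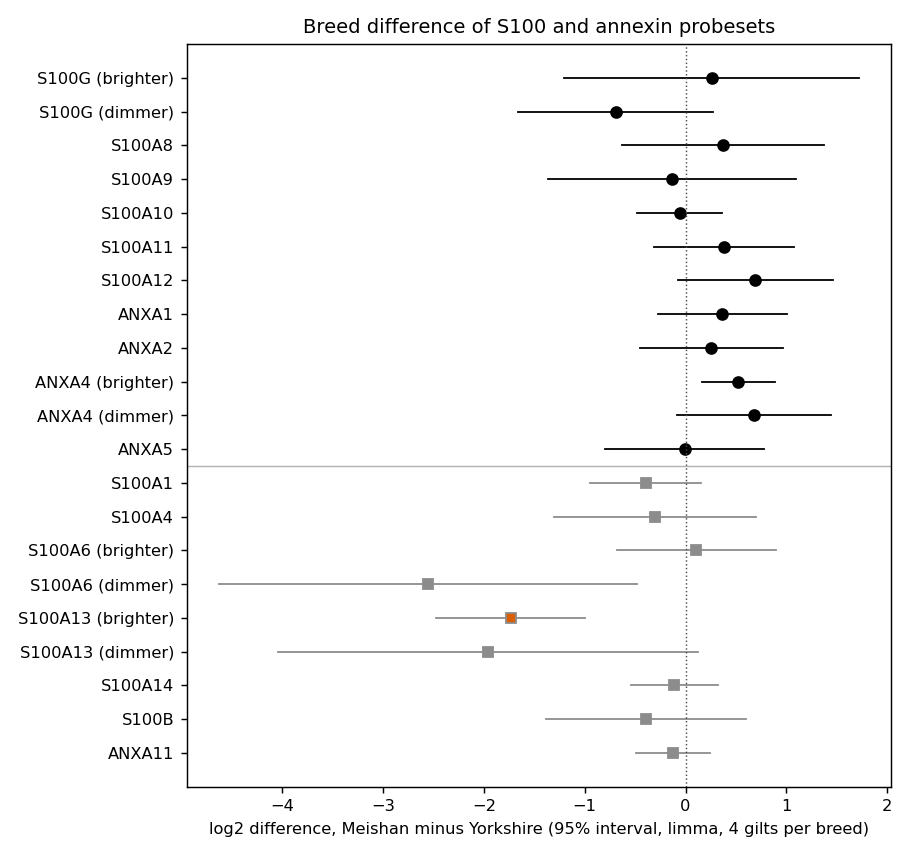
Log2 difference (Meishan minus Yorkshire) of the 12 probesets (black circles) and of the other measured S100 and annexin probesets (grey squares), with 95% limma intervals from 4 gilts per breed. The intervals of 11 of the 12 black points cross 0, that of the brighter ANXA4 probeset runs from 0.16 to 0.89, and the called S100A13 probeset (orange centre) lies at -1.73.

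ANXA1, ANXA2, ANXA5 and S100A11 tracked each other from gilt to gilt. All 6 pairs among them had r between 0.76 and 0.88 over 8 gilts, while the 66 pairs of the 12 probesets had a median r of 0.30. Meishan 1 was the highest gilt for each of these 4 genes, and Yorkshire 4 and Meishan 4 came next. For ANXA2 and ANXA5 the lowest gilt was Meishan 2, and for ANXA1 and S100A11 it was Yorkshire 2. ANXA2 with S100A11 gave 0.88 (Spearman rho 0.88), and without the farthest gilts, Meishan 1 and Meishan 4, 0.71. ANXA2 with ANXA5 gave 0.88 (rho 0.79), and without Meishan 1 and Yorkshire 4, 0.64.

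Such values were not rare among bright probesets. An r of at least 0.8 with ANXA2 was reached by 4.89% of the other tested probesets and by 14.4% of those in the brightest 10%. For ANXA5 the shares were 4.80% and 12.9%. The known partners differed: S100A11 with ANXA1 gave 0.78 (rho 0.86), while S100A10 with ANXA2 gave 0.34 (rho 0.45). Within the 4 Meishan gilts these pairs gave 0.79 and 0.90, and within the 4 Yorkshire gilts 0.73 and -0.08.

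S100A9 ran opposite to these genes. Its r was -0.95 with ANXA5 (rho -0.93), -0.90 with ANXA2 (rho -0.79), -0.84 with ANXA1 and -0.73 with S100A11. Without Meishan 1 and Yorkshire 4, the lowest gilts for S100A9, r was -0.82 with ANXA5 and -0.70 with ANXA2, but -0.17 with ANXA1, so the last rests on those gilts. Within the 4 Meishan gilts r with ANXA5 was -0.98 and within the 4 Yorkshire gilts -0.90. An r of -0.8 or below with S100A9 was reached by 4.84% of the other tested probesets and by 13.6% of the brightest 10%.

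**Figure D3:**
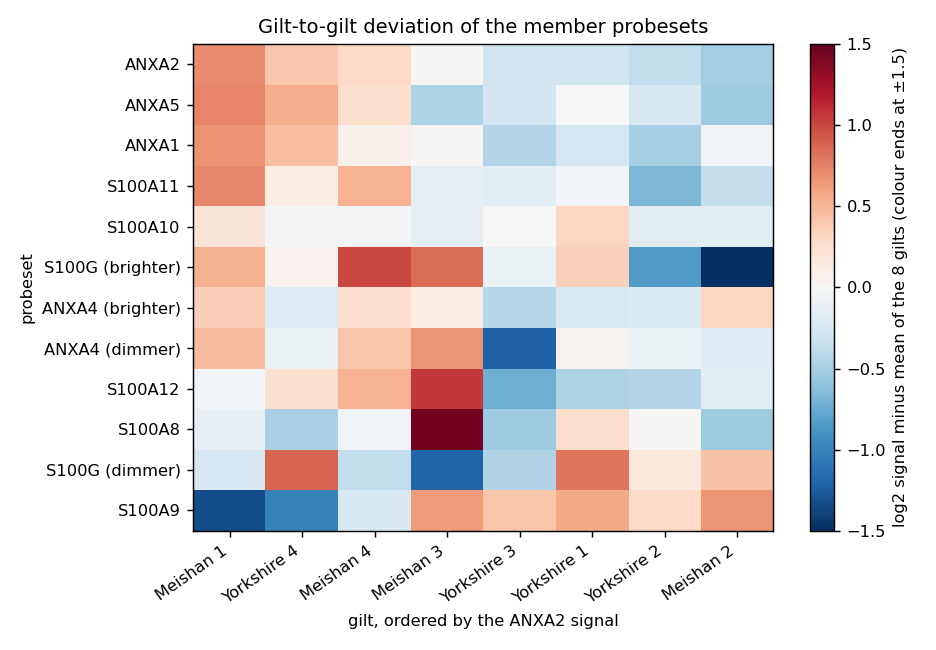
Log2 signal of each probeset minus its mean over the 8 gilts, with gilts ordered from highest to lowest ANXA2 signal. The top 4 rows are red at the left, in Meishan 1 and Yorkshire 4, where the bottom row, S100A9, is blue (-1.33 and -1.02).

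**Figure D4:**
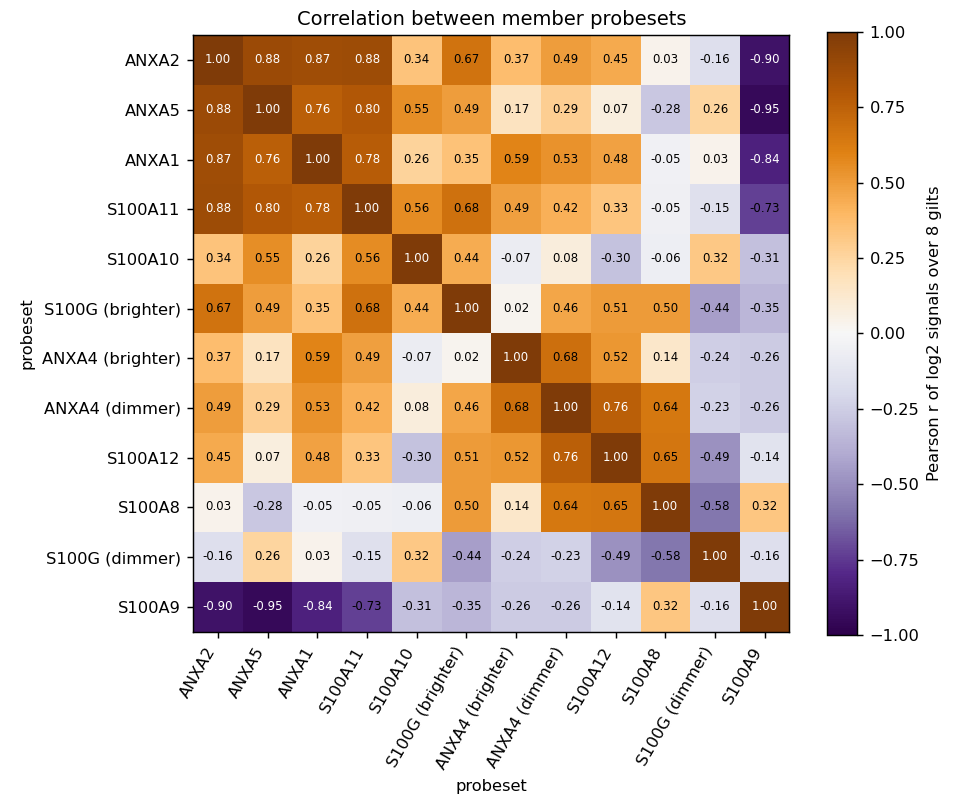
Pearson r between the log2 signals of each pair of the 12 probesets over 8 gilts. ANXA1, ANXA2, ANXA5 and S100A11 form a block of values from 0.76 to 0.88, and their values with S100A9 run from -0.73 to -0.95.

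Marker levels of several tissue compartments and a measure of RNA quality moved with this pattern. The mean log2 signal of epithelial markers was 11.75, 11.01, 11.23 and 11.45 for Meishan and 11.37, 11.05, 11.48 and 11.74 for Yorkshire. Meishan 1 and Yorkshire 4 were thus highest. The marker level had an r of 0.87 with ANXA5, 0.84 with ANXA2, 0.79 with S100A11, 0.69 with ANXA1 and -0.83 with S100A9 over the 8 gilts. Other marker lists moved with the same genes. Conceptus markers were measured for 4 of 6 genes, 2 of them with a mean signal below 64. Their level had an r of 0.86 with S100A9, -0.78 with ANXA2 and -0.76 with ANXA5. It ran from 5.08 in Meishan 1 to 7.46 in Yorkshire 1. IFNG alone ran from a signal of 14.2 in Meishan 1 to 6286 in Yorkshire 3. The conceptus level without IFNG was not tested. IFNG lay toward Yorkshire (-2.23, SE 1.91) and SERPINA1 toward Meishan (1.55, SE 0.79). Smooth muscle markers gave 0.77 with ANXA2, 0.70 with ANXA5 and -0.64 with S100A9. Stromal markers gave -0.75, -0.61 and 0.67 in the same order. The brightest probeset of THY1, a stromal marker, alone ran from 474 in Yorkshire 4 to 10575 in Yorkshire 3. Those gilts also had the lowest and the highest stromal level, and the level without THY1 was not tested. At their brightest probesets COL3A1 (0.62), VIM (0.47), COL1A2 (0.44) and DCN (0.27) lay toward Meishan without overlap. Of all tested probesets 10.1% were without overlap, 5.01% with Meishan above. These 4 genes had mean signals above 10000, where 88 of 211 probesets had Meishan above without overlap, with a median difference of 0.29 over the 211. PDGFRB lay toward Yorkshire without overlap (-0.31), and DCN and PDGFRB were named after their values were seen.

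The ratio of signals from the 3′ and the 5′ end of GAPDH, which grows as RNA is degraded or incompletely copied, was 3.41, 7.14, 4.56 and 4.15 in Meishan and 4.04, 4.98, 5.68 and 3.38 in Yorkshire. Meishan 1 and Yorkshire 4 had the lowest ratios and Meishan 2 the highest. The same ratio for actin was 1.56, 3.32, 2.91 and 2.63 in Meishan and 2.01, 2.48, 4.45 and 2.26 in Yorkshire. The actin ratio was thus lowest in Meishan 1 and highest in Yorkshire 3, and Yorkshire 1 lay below Yorkshire 4. Pearson r of the log2 GAPDH ratio was -0.87 with ANXA5, -0.84 with ANXA2, -0.67 with S100A11, -0.65 with ANXA1 and 0.76 with S100A9. For the log2 actin ratio r was weaker, at -0.73, -0.62, -0.52, -0.62 and 0.64 in the same order. Without Meishan 1 and Yorkshire 3, the gilts farthest from the median actin ratio, these were -0.66, -0.28, -0.21, 0.05 and 0.38. The GAPDH values without its farthest gilts, Meishan 2 and Yorkshire 3, were -0.91, -0.81, -0.74, -0.88 and 0.84. With the epithelial markers themselves r was -0.79 for the GAPDH ratio and -0.44 for the actin ratio. Tissue composition and RNA quality thus cannot be told apart here, and their part in the shared pattern was not tested. For the brighter ANXA4 probeset r was -0.05 with the epithelial markers, -0.02 with the GAPDH ratio and -0.34 with the actin ratio. With the endothelial markers it was -0.80 (rho -0.79). For the dimmer ANXA4 probeset these values were 0.04, -0.49, -0.65 and -0.81. Within the breeds the actin ratio gave -0.48 in Meishan and -0.95 in Yorkshire with the brighter probeset. With the dimmer it gave -0.41 and -0.99. Yorkshire 3, the lowest of its breed at both probesets, had the highest actin ratio. Over the gilts other than Meishan 1 and Yorkshire 3, r with the actin ratio was 0.86 for the brighter probeset and 0.16 for the dimmer. The endothelial level was 9.95, 9.98, 9.95 and 9.86 for Meishan and 10.07, 10.33, 10.41 and 10.02 for Yorkshire, so all Yorkshire gilts lay above all Meishan gilts. The list itself was split, with 8 of its 14 probesets toward Yorkshire and 6 toward Meishan. The latter included the brightest PECAM1 probeset (0.11) and that of ENG (0.20), genes named here after their values were seen. Within the breeds r of the brighter ANXA4 probeset with the endothelial level was 0.22 in Meishan and -0.71 in Yorkshire. The parts of vessel content and of RNA quality in the ANXA4 difference were not tested.

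**Figure D5:**
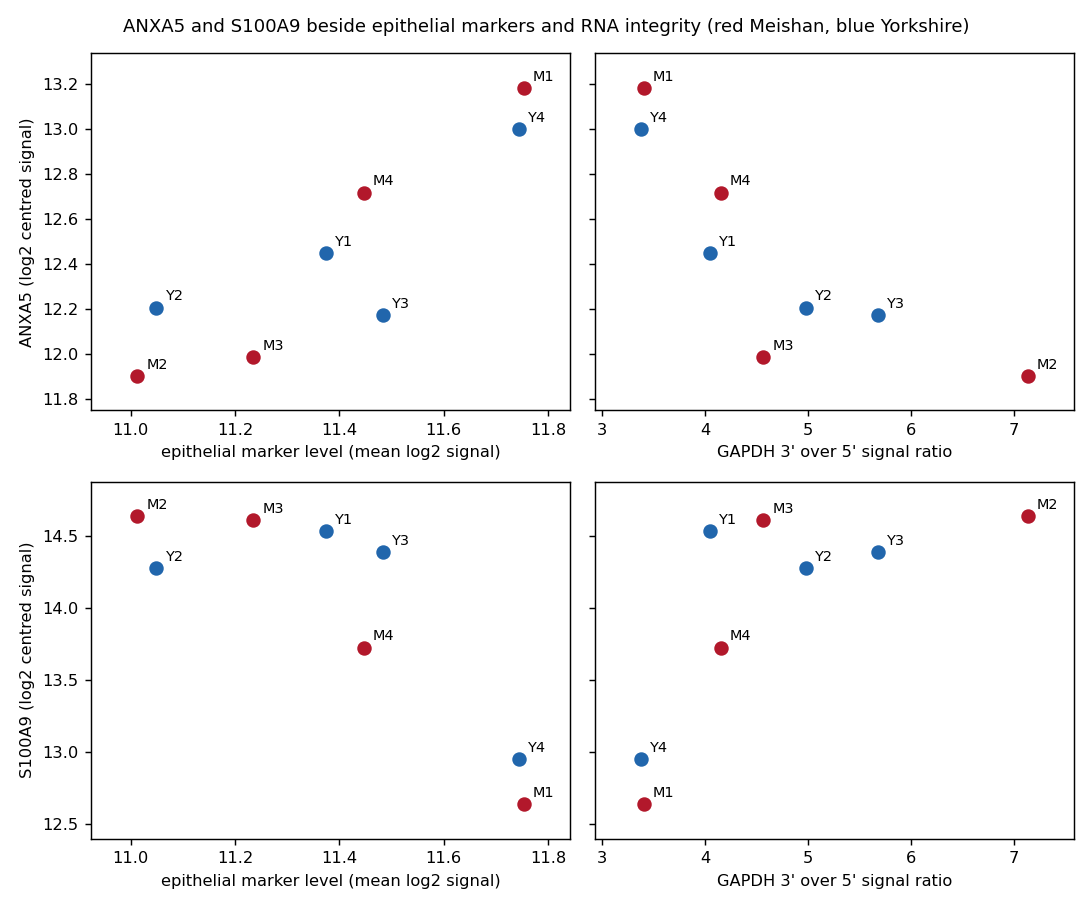
ANXA5 (top) and S100A9 (bottom) as log2 signals against the mean log2 signal of 9 epithelial marker genes (left) and the GAPDH 3′ over 5′ ratio (right), 1 point per gilt (red Meishan, blue Yorkshire). Meishan 1 and Yorkshire 4 sit together at an end of every panel, and the breeds are mixed along each axis.

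Other S100 genes were measured for 6 of 13 symbols (8 probesets), of which 7 lay toward Yorkshire and 1 toward Meishan, with a median difference of -0.39. An unadjusted p under 0.05 was reached by 2 of 8 and a call by 1, where 14.8% and 0.908% of all tested probesets did so. Among the 6 probesets named by the array's annotation these counts were 1 and 0. S100A13, a calcium and copper binding protein needed for the release of FGF1, had signals of 121, 142, 66.4 and 139 in Meishan and 266, 344, 539 and 392 in Yorkshire. All Yorkshire gilts lay above all Meishan gilts, with means of 373 and 112, a 3.33-fold greater abundance in Yorkshire (difference -1.73, SE 0.32, limma adjusted p = 0.0846). This call was lost on leaving out any 1 gilt other than Meishan 4. The name S100A13 comes only from the authors' list of transcripts that differed in these samples, so the call is not independent evidence. A second S100A13 probeset, named from the same list, had means of 49.4 and 192 (-1.96, SE 0.91, limma adjusted p = 0.366) and was not called.

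S100A6, calcyclin, is a known partner of several annexins, and its 2 probesets parted. The brighter gave 10095, 4029.6, 6437 and 8549.7 in Meishan and 5252, 5589.8, 5710.5 and 9982 in Yorkshire, a difference of 0.10 (SE 0.34). It followed ANXA2 most closely of all S100 probesets, with an r of 0.96 over 8 gilts (rho 0.98) and 0.95 without Meishan 1 and Yorkshire 4. The dimmer gave 46.8, 36.5, 22.2 and 532 in Meishan and 377, 370.3, 326 and 531 in Yorkshire. Meishan 1 to 3 were thus far below all Yorkshire gilts while Meishan 4 was level with the highest of them (difference -2.56, SE 0.90, limma unadjusted p = 0.0215, adjusted p = 0.249).

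S100A1, of muscle and other tissues, had means of 2049 and 2696 (-0.40, SE 0.24, limma adjusted p = 0.484). S100B, best known from glia, had means of 1260.4 and 1651 (-0.39, SE 0.43, limma adjusted p = 0.720), and like S100A9 it was lowest in Meishan 1 and Yorkshire 4, at 585 and 953. Of 9 other annexin symbols only ANXA11 was measured, with means of 2865 and 3127 (-0.13, SE 0.16, limma adjusted p = 0.755).

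Partners and receptors of the families were measured for 7 of 16 genes (16 probesets), with 0 called by limma and 1 in each direction at an unadjusted p under 0.05. NR3C1, the glucocorticoid receptor through which ANXA1 is induced, had means of 184 in Meishan and 323 in Yorkshire at the probeset with the lowest p (-0.81, SE 0.25, limma adjusted p = 0.210). Its other probesets lay between -0.95 and 0.06. TLR4, a receptor for calprotectin, had 5 probesets, of which the 4 brighter ones lay toward Yorkshire by differences of -0.96 to -0.37 and the dimmest, with means of 4.59 and 2.23, lay toward Meishan. AGER, the receptor of S100A12, had mean signals of 11.04 and 5.63 at its brighter probeset, under the level of 64 in both breeds.

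Calcium transport genes were measured for 9 of 17 symbols (21 probesets), with 0 called and 2 in each direction at an unadjusted p under 0.05 in limma. CALM2, a calmodulin gene, had means of 17800.3 and 10296 (0.79, SE 0.29, limma adjusted p = 0.264) at its brightest probeset, but 9034 and 8272 at another bright one (0.13, SE 0.26, limma adjusted p = 0.859). ATP2B1, a calcium pump of the plasma membrane, had means of 923 and 1596 (-0.79, SE 0.29, limma adjusted p = 0.269). A dim probeset of ATP2A2, the calcium pump of the endoplasmic reticulum, had means of 39.2 and 80.3 (-1.04, SE 0.28, limma adjusted p = 0.170), while its 3 brighter probesets lay between -0.10 and -0.04.

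Genes whose brightest probesets most resembled those of S100G and the calgranulins over the 8 gilts were sought among 5964 named genes. For S100G they were METAP1, SLC2A8 and THG1L (Pearson r 0.96, 0.96 and 0.95, Spearman rho 0.98, 0.95 and 0.93). For S100A8 they were BORCS8, CD99 and C2H19orf25 (r 0.98, 0.95 and 0.90, rho 0.93, 0.60 and 0.88), the lower rho belonging to CD99. TMEM25, KLC4 and PDK4 came nearest to S100A9 (r 0.97, 0.96 and 0.96, rho 0.81, 0.76 and 0.90). TMLHE, LOC100515118 and LOC100513397 came nearest to S100A12 (r 0.97, 0.95 and 0.93, rho 0.98, 0.98 and 0.76). None of the 12 is an S100 or annexin gene.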

How the data were processed

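The authors converted scanner images of the porcine arrays to linear signal intensities with GCOS 1.2, and the deposited intensities were these values, with a trimmed mean (2% at each end) near 500.1 on every array. Of 24123 probesets, 124 controls were removed. After log2 transformation and centring of every array on its median, breeds were compared with limma 3.58.1 in R 4.3.3 (lmFit, eBayes) with Benjamini-Hochberg adjustment over all 23999 probesets, calling at an adjusted p under 0.1. The procedure was also run on simulated data with independent normal noise at each probeset. Those data lacked the shift of bright probesets seen here, and no result above rests on them. Detection calls were not used here, and precision is limited by the number of arrays.

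In the array's annotation 10110 probesets have 1 symbol, 157 have several and 13732 have none. Names in the authors' supplementary list served only where the annotation gave no symbol or several. The fold changes and p-values of that list were not used. Members and gene lists were chosen with earlier results of these data known. Named are all member probesets, called probesets and up to 4 genes with the lowest p of each list, and the 3 genes most like S100G and each calgranulin. A list's level in a gilt is the mean over its genes at their brightest probesets. The other marker lists were leukocyte, endothelial, smooth muscle, red blood cell and conceptus markers. Alternatives covered scaling, filters, floors, prior, weights, adjustment, threshold, replicate block and leaving out each gilt. Sequences and coordinates were not used here.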

Additional observations from a re-analysis of the deposited data

Results flagged for a closer look

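A gilt set apart from the other 3 of its breed was found in 5 of the 24 groups of 4 gilts (12 probesets in 2 breeds). The measure was Dixon's ratio on log2 signals, the gap to the nearest neighbour over the range of the group. It is given below beside linear signals, and was set against its 95% critical value for 4 samples. Chance sets apart about 1 in 20 groups, and neither probesets nor gilts are independent here. At the brighter S100G probeset Meishan 2 had a signal of 1557 (ratio 0.834), while the other Meishan gilts had at least 8167. For S100A9 Yorkshire 4 had 7924 (0.835), and for ANXA2 the same gilt had 12324 (0.870), the lowest and the highest of its breed. Yorkshire 3 was the lowest of its breed at both ANXA4 probesets, with 12557 at the brighter (0.878) and 3449 at the dimmer (0.885).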

How the results depend on the processing

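Of 240 recomputed differences of the 12 probesets (20 alternatives each), 228 kept direction and side of the threshold, 11 changed sign and 1 passed the threshold. That one was the brighter ANXA4 probeset in the unmoderated linear model (adjusted p = 0.0817), so that the number called was 1 there and 0 under every other alternative. ANXA4 ranged from 0.30 to 0.59 at this probeset. ANXA5 was 0.053 without further scaling, 0.00072 after quantile normalization and -0.26 to 0.17 on leaving out single gilts. Leaving out single gilts also gave -0.046 to 0.61 for S100A8, -0.50 to 0.29 for S100A9, -0.033 to 0.92 for the brighter S100G probeset and -0.13 to 0.039 for S100A10, which was 0.0048 without further scaling. The cause of these sign changes was not tested. Among the other S100 and annexin probesets the count called was 0 with the replicate block, in the unmoderated model and at the 0.05 threshold, and 0 to 1 on leaving out single gilts.

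Over all tested probesets the count called (218) was 531 among those at 64 or more in at least 2 arrays, 777 with a floor of 32, 563 with a pseudocount of 16, 626 with an intensity trend, 497 with array weights, 532 with Storey q-values, 60 at an adjusted p under 0.05, and 72 to 205 on leaving out single gilts. The median spread of the 12 probesets stayed near 0.49 after quantile normalization and with a floor of 32.

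With the replicate number of the titles as a block limma called 0 probesets, and 3327 had an unadjusted p under 0.05. Gilts that share a number had deviations correlated at -0.06, 0.09, 0.00 and 0.04 over all tested probesets. Such correlations cannot exclude a pairing that touches few probesets. No label says that a number pairs gilts, so the block is given only as an alternative.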

Other observations

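STC1, a secreted regulator of calcium and phosphate known from uterine glands, lies outside the rule for named genes and was chosen after its values were seen. At its brightest probeset the signals were 150.4, 11860.4, 9478 and 300.1 in Meishan and 13737, 6894, 18754 and 385 in Yorkshire. Meishan 1, Meishan 4 and Yorkshire 4 were thus more than an order of magnitude below the other 5 gilts, and these 3 gilts were also the highest for ANXA2, ANXA5, S100A11 and the brighter S100A6 probeset. The breed difference was -1.77 (SE 1.80, limma adjusted p = 0.695). TRPV6, an epithelial calcium channel chosen likewise, had signals of 2226, 3769, 3125 and 6667 in Meishan and 5578, 6272, 8758 and 2616 in Yorkshire, lowest in Meishan 1 and Yorkshire 4 (-0.55, SE 0.45, limma adjusted p = 0.618).

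Among the remaining marker lists, limma called 1 probeset of leukocyte and lymphocyte markers (7 of 10 genes measured), CD79B, a chain of the B cell receptor, with means of 80.4 in Meishan and 34.3 in Yorkshire (difference 1.23, SE 0.24, limma adjusted p = 0.0920). Of the 8 probesets of that list 5 lay toward Yorkshire, and CD3E, a chain of the T cell receptor complex, had means of 96.2 and 152 (-0.66, SE 0.27, limma unadjusted p = 0.0386, adjusted p = 0.308). An unadjusted p under 0.05 was thus reached by 1 probeset in each direction. It called 0 epithelial probesets, of which 0 had an unadjusted p under 0.05, and 0 stromal probesets, of which 3 in each direction did. Endothelial markers (6 of 7 genes) had 0 called and 2 probesets toward Yorkshire at that level, CDH5 (-0.58, SE 0.17, limma adjusted p = 0.185) and KDR (-0.49, SE 0.20, limma adjusted p = 0.315). Smooth muscle, red blood cell and conceptus markers had 0 probesets called and 0 at that level. These lists had mean log2 signals of 10.17 to 10.88, 8.51 to 9.29 and 5.08 to 7.46 over the 8 gilts.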
